A study of Cavia porcellus with 24 samples.

Results

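The F2 generation was compared with the F1 generation in 11 of the 24 libraries of the series, those of the guinea pigs fed the high fat diet (HFD). The libraries follow from the labels, as every HFD animal with the exception of PC-C-H animal 51, whose library failed the quality check of the study. The F1 side held 6 animals, PC-H 11, 21 and 34 and PR-H 16, 23 and 31. The F2 side held 5 animals, PC-C-H 50 and 53 and PR-C-H 43, 46 and 59. PC marks descent from F0 dams fed 100% of ad libitum intake, and PR marks descent from F0 dams restricted to 70% of it from around conception until about mid gestation and more mildly from then to the end of lactation. The animals were outbred Hartley guinea pigs. F1 animals are the offspring of those dams, and F2 animals are the offspring of F1 females of the same arm that stayed on control chow, including during pregnancy, and of unrelated males. Animals of both generations received control chow until 8 weeks of age and then the cholesterol-supplemented HFD for 12 weeks, so that all were 20 weeks old at collection. The comparison therefore asks whether carotid endothelium met this diet with the same transcripts in both generations. The F1 generation was exposed to the F0 ration in utero, and the F2 generation is the next one. The amount eaten was not held equal, and the paper reports that F2 animals were slower to accept the HFD.

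RNA was collected by flushing a carotid artery with lysis reagent, and each animal gave 1 library. The F1 side had 5 males and 1 female, and the F2 side 3 males and 2 females. For PC-H animal 34 the animal list of the study notes a mixed chow during the challenge. The labels give no litter, extraction day or sequencing run, so generation and any batch that went with it cannot be told apart. The study assigned diets pseudo-randomly with the aim of keeping siblings out of the same treatment. In F2 this could not hold for all animals that the paper weighed, as it lists fewer F1 dams than such animals in PC-C-H and in PR-C-H. Whether it held among the F2 animals compared here is not given. Animals of a group may therefore be siblings, and p-values measure the spread between these animals as if they were independent.

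As background, endothelial cells take up cholesterol from circulating lipoproteins and hand it on or export it. When sterols accumulate, oxysterols activate the liver X receptors, which induce exporters such as Abcg1 and the ubiquitin ligase Mylip, which marks the low-density lipoprotein receptor for breakdown. Liver X receptors also induce Srebf1, the transcription factor of fatty acid synthesis, whose targets include the desaturase Scd1. Chaperones of the cytosol, the endoplasmic reticulum and the mitochondrion fold the proteins made under such a load.

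Depth was alike on both sides. Reads per library ranged from 24030113 to 28823878 in F1 and from 25557093 to 31148123 in F2 (exact permutation test within rations, two-sided, p = 0.635, where the smallest p possible is 0.005). Genes with at least 10 normalized counts in a library numbered 12760 to 13510 in F1 and 12706 to 12895 in F2 (exact permutation p = 0.125). The libraries of PC-H animals 11 and 34 stood apart from the other 9. Their median correlations with the other HFD libraries were 0.950 and 0.936, against 0.972 to 0.977 for the rest. Values with and without them are given for the genes and lists that moved most. Genes are listed by Ensembl identifier, and 144 of them could be paired with a name. The canonical endothelial markers (Pecam1, Cdh5, Vwf and others) are not among those names, so that the labelled cell type could not be checked against them here. Of the endothelial list, Ackr3 and Tm4sf18 were named, and both were detected in each of the 11 libraries, Tm4sf18 at 121 to 375 normalized counts. The 8 named genes of the mesenchymal and smooth muscle list were detected too. They summed to 29880 to 42640 normalized counts in F1 and 37420 to 44530 in F2. Neither list measures the share of a cell type.

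**Figure D1:**
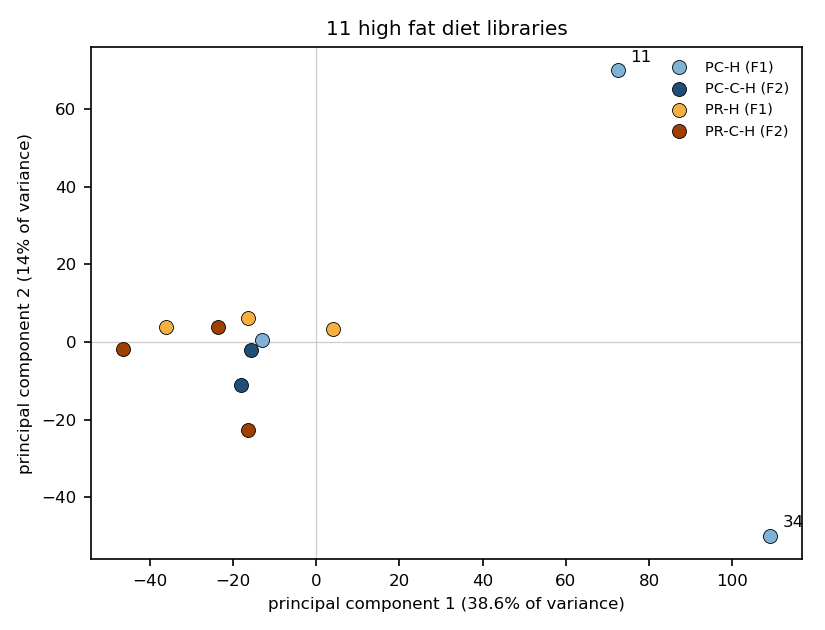
Principal components of the 11 high fat diet libraries on log2 normalized counts, each point 1 animal, coloured by group. PC-H animals 11 and 34 lie at 72.4 and 109 on the first component, which holds 38.6% of the variance, while the other 9 lie between -46.3 and 4.12.

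The names come from a list of genes that the study found to respond to the diet in its PC-C vs PC-H comparison. The PC-H animals of that comparison are also 3 of the 6 F1 animals here. For named genes, a difference in the PC arm or across both arms is therefore not independent of that choice, whereas the PR arm shares no animal with it.

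Across both arms, with the F0 ration as a covariate, 0 of 13171 genes passed an adjusted p of 0.05 with limma, the main test, and 0 of 13368 with edgeR. The smallest limma adjusted p was 0.171. At an unadjusted p under 0.05, limma found 1156 genes (8.78%) and edgeR 1159. DESeq2, the test used in the study, placed 43 of 17481 genes past the same threshold (0.246%). Of these, 13 were higher and 30 lower in F2 (0.0744% and 0.172% of the genes tested). The normalized counts of 103 genes (0.782%) did not overlap between the generations, 62 of them higher in F2 and 41 lower. In what follows, a gene is said to have risen or fallen only where DESeq2 passed the threshold, and none of these calls is shared by limma or edgeR. Differences are F2 minus F1 on the log2 scale of the normalized count plus 1, from limma, with standard errors (SE) or 95% confidence intervals.

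The sterol response genes were at similar levels in both generations. Abcg1, which exports cholesterol to high-density lipoprotein, measured 2318, 2399 and 1277 normalized counts in PC-H 11, 21 and 34 and 3268, 2714 and 2870 in PR-H 16, 23 and 31. In F2 it measured 2292 and 2500 in PC-C-H 50 and 53 and 2375, 3114 and 2908 in PR-C-H 43, 46 and 59. The generations overlapped, and PC-H 34 alone was low. On the control diet the same gene stayed between 65.6 and 657.6 in all 12 animals, below each of the 11 HFD animals. The difference between generations was 0.10 (95% interval -0.27 to 0.46), and -0.06 without PC-H 11 and 34. Mylip gave a difference of 0.08 (-0.15 to 0.31), with 1336 to 1674 normalized counts in F1 and 1376 to 1852 in F2 against 340 to 659 on the control diet. Srebf1 gave -0.19 (-0.68 to 0.29, and -0.32 without PC-H 11 and 34), with 438 to 1033 in F1 and 427 to 1202 in F2 against 21.2 to 227 on the control diet. Intervals of this width do not show that the levels were equal, but the HFD levels of both generations lay above the control diet levels of both for these 3 genes.

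Scd1, which introduces the double bond of oleate and palmitoleate, was the lipid gene with the widest gap between generations. It measured 1118, 1068 and 1584 normalized counts in PC-H and 1308, 1324 and 1362 in PR-H, against 897 and 579 in PC-C-H and 778, 1224 and 895 in PR-C-H. The mean was 1294 ± 185 (SD, n = 6) in F1 and 875 ± 235 (SD, n = 5) in F2. Only PR-C-H 46 overlapped the F1 animals, lying above PC-H 11 and 21. The difference was -0.62 (SE 0.16, 95% interval -0.97 to -0.26), with an exact permutation p of 0.005 for this gene alone, the smallest possible, a limma adjusted p of 0.548 and a DESeq2 adjusted p of 0.126, so it did not pass the threshold. Among the PR animals the difference was -0.49 (SE 0.22). Without PC-H 11 and 34 it was -0.51. On the control diet the mean difference between generations was -0.01 on the same scale. The list of fatty acid and sterol synthesis also held Fntb, a subunit of protein farnesyltransferase, which modifies proteins rather than making lipid. Fntb differed by -0.33. It fell by 0.73 in the PC arm (DESeq2 adjusted p = 0.000861), beside -0.01 in the PR arm. Gpd2, the mitochondrial glycerol-3-phosphate dehydrogenase, was also placed in that list and differed by 0.23.

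**Figure D2:**
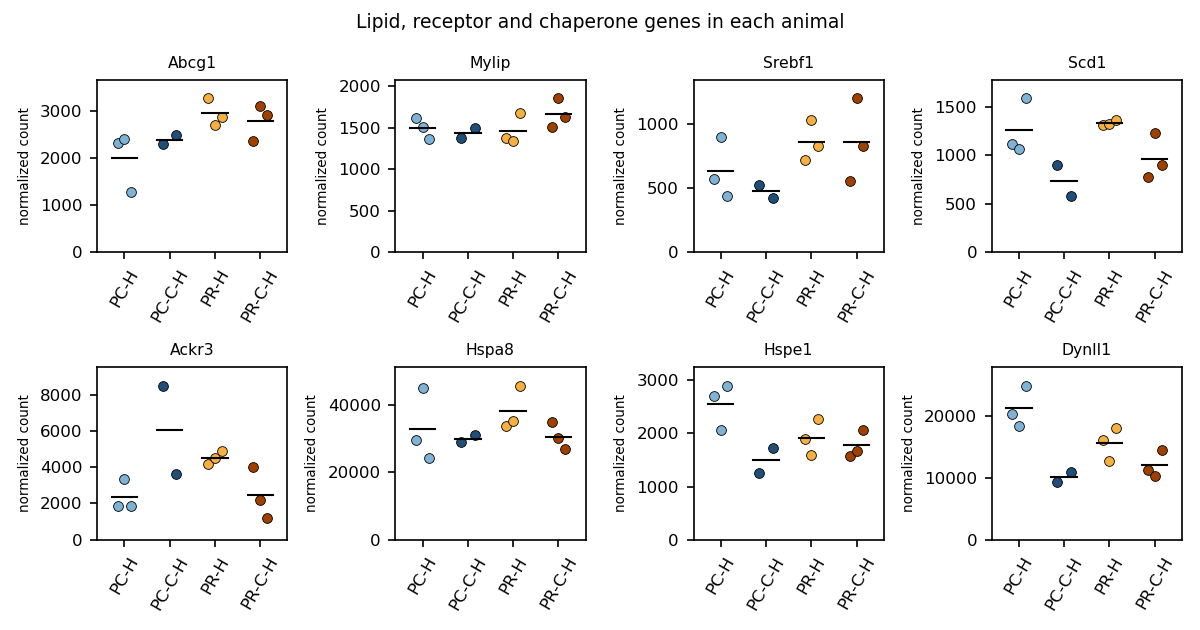
Normalized counts of 8 genes in each of the 11 animals (vertical axes start at 0), by group, with lines at the group means. Abcg1, Mylip and Srebf1 overlap between generations in both arms, Scd1 lies lower in most F2 animals, and Ackr3 moves in opposite directions in the 2 arms.

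Ackr3, the atypical receptor that scavenges the chemokine CXCL12, showed no shared direction. It measured 1879, 3320 and 1854 normalized counts in PC-H against 8483 and 3641 in PC-C-H. Every F2 animal lay above every F1 animal in this arm, as for 13.7% of all genes there. In either direction, 97 of the 141 named genes tested did not overlap in the PC arm. Among PR animals Ackr3 measured 4163, 4484 and 4894 in PR-H against 4007, 2170 and 1225 in PR-C-H. Here every F2 animal lay below every F1 animal, as for 4.2% of all genes in the PR arm. The difference was 1.30 (SE 0.46) in the PC arm and -1.03 (SE 0.41) in the PR arm. The difference between these differences was -2.33, with an adjusted p of 0.0833 by DESeq2, and did not pass the threshold. Across arms the value was 0.00 (95% interval -0.96 to 0.96), and -0.49 without PC-H 11 and 34. Ppp1r2, an inhibitor subunit of protein phosphatase 1, differed by -0.11 (-0.40 to 0.19), or -0.19 without PC-H 11 and 34.

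Chaperone genes lay below 0 as a group, by small amounts. Of 7 named cytosolic chaperones and cochaperones, 6 were lower in F2 and 0 passed a test. Their median difference was -0.215, beside 0.0151 over all genes tested. The named genes as a whole also lay low, with a median of -0.132 and 85 of 141 below 0. Hspa8, the constitutive Hsc70, measured 24056 to 45577 normalized counts in F1 and 26769 to 34699 in F2, a difference of -0.21 (95% interval -0.57 to 0.14), or -0.40 without PC-H 11 and 34. Its cochaperone Dnajb1 measured 3303 to 4394 in F1 and 2790 to 3559 in F2 and differed by -0.30 (-0.53 to -0.08), with nearly the same value in each arm (-0.28 in PC and -0.32 in PR). Cacybp differed by -0.34, Hspa14 by -0.22 and the chaperonin subunit Cct2 by -0.07. The PR arm alone gave these 7 a median of -0.0547, with 4 of 7 below 0.

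In the endoplasmic reticulum list, which shares Dnajc25 with the cytosolic list, 5 of 5 named genes lay below 0 and 0 passed across arms. Their median was -0.176, beside -0.132 over the 141 named genes. In the PC arm 1 of the 5, Manf, fell by DESeq2 (-0.69, adjusted p = 0.0438). In the PR arm 4 of 5 lay below 0 with a median of -0.0792. Manf, a secreted protein induced by unfolded proteins, measured 3611, 4101, 4117, 3759, 2345 and 3743 normalized counts in the F1 animals 11, 21, 34, 16, 23 and 31. In the F2 animals 50, 53, 43, 46 and 59 it measured 2298, 2580, 2684, 2648 and 3037. Apart from PR-H 23, each F1 animal was above each F2 animal. The difference was -0.42 (95% interval -0.74 to -0.11), with a DESeq2 adjusted p of 0.267. Dnajb11 differed by -0.10.

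Like the other lists, that of mitochondrial folding, import and respiration was put together with earlier results of these data known. All 7 of its named members (Hspe1, Chchd4, Timm13, Ndufv2, Prelid1, Tmem11 and Vdac2) lay below 0 in both arms. Their median was -0.409 across arms, -0.703 in the PC arm and -0.154 in the PR arm, beside 0.0151, 0.0161 and 0.00605 over all genes. Over the 141 named genes the median was -0.132, -0.185 and -0.035. None of the 7 passed a test across arms or in the PR arm. By DESeq2 4 fell in the PC arm (Hspe1, Prelid1, Timm13 and Ndufv2). There 1.9% of all genes fell, and 19 of the 141 named genes. Hspe1, the cochaperonin of the matrix, measured 2705, 2074 and 2899 normalized counts in PC-H and 1254 and 1732 in PC-C-H, but 1903, 1599 and 2267 in PR-H and 1578, 1678 and 2069 in PR-C-H. The generations were separate in the PC arm, as for 29.1% of all genes and 97 of the 141 named genes there. They overlapped in the PR arm. Chchd4, which oxidises proteins imported into the intermembrane space, differed by -0.47 across arms, by -0.26 in the PR arm and by -0.28 without PC-H 11 and 34. Without PC-H 11 and 34 the list kept 7 of 7 below 0 with a median of -0.228. The named members come from the study's own diet response, so their direction is not independent evidence. Mitochondrial genes placed in other lists went both ways, with Gpd2 at 0.23, the carrier Slc25a40 at 0.42 and Top1mt at -0.13.

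In the list of chromatin and transcription regulators, 12 of 12 members lay above 0, with a median of 0.341 and 0 past a test across arms. The list is not complete and holds only genes that were named, so the count is not evidence of a common direction. Named transcription regulators outside it lay below 0, among them Snai2 (-1.07), Scx (-0.57), Cited4 (-0.44), Srebf1 (-0.19) and Xbp1 (-0.18). In the PC arm 3 of the 12, Tshz1, Qrich1 and Arid1b, rose by DESeq2 and the median was 0.575. There 0.849% of all genes rose, and 10 of the 141 named genes. In the PR arm 10 of 12 lay above 0 with a median of 0.123 and 0 passed. Without PC-H 11 and 34 all 12 remained above 0, with a median of 0.228. Qrich1, a transcriptional regulator in the stress response of the endoplasmic reticulum, measured 444, 388 and 199 normalized counts in PC-H and 498, 631 and 610 in PR-H, against 629 and 834 in PC-C-H and 735, 732 and 763 in PR-C-H. Only PC-C-H 50 lay within the F1 range. The difference was 0.72 (SE 0.22) with a DESeq2 adjusted p of 0.212. Maml1, a coactivator of Notch, differed by 0.41 with nearly the same value in each arm (0.40 in PC and 0.43 in PR). Tshz1, a zinc finger transcription factor, measured 942, 1100 and 1088 in PC-H against 2005 and 2307 in PC-C-H, whereas PR-H (2193, 1672 and 1817) overlapped PR-C-H (2046, 1673 and 2013). It rose by 1.05 in the PC arm (DESeq2 adjusted p = 9.66e-06), differed by 0.02 in the PR arm, and this contrast between arms itself passed with DESeq2 (adjusted p = 0.0081).

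Among the 141 named genes tested, 3 passed with DESeq2 across arms, Frmd4a and Ltbp1 higher in F2 and Dynll1 lower. Frmd4a, a scaffold of epithelial polarity and Arf6 signalling, measured 961, 1317 and 1154 normalized counts in PC-H and 1585, 1425 and 1167 in PR-H, against 1797 and 1709 in PC-C-H and 1881, 1661 and 2207 in PR-C-H. The generations did not overlap. It rose by 0.54 (SE 0.12, DESeq2 adjusted p = 0.027). The differences of 0.63 in the PC arm and 0.46 in the PR arm did not pass alone. On the control diet, F1 animals measured 1662 to 2208, which is the range of the F2 HFD animals (1661 to 2207), and F2 animals 1314 to 1770. Ltbp1, which holds latent transforming growth factor beta in the matrix, averaged 8410 ± 2047 (SD, n = 6) in F1 and 12268 ± 2651 (SD, n = 5) in F2. It rose by 0.50 (SE 0.12, DESeq2 adjusted p = 0.0321), with differences of 0.54 and 0.48 in the PC and PR arms that did not pass alone, and PC-C-H 50 and 53 overlapped PR-H 23 and 31.

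Dynll1, the light chain that joins dynein and many other partners, fell. It measured 20409, 18416 and 24933 normalized counts in PC-H and 16186, 12713 and 18077 in PR-H, against 9306 and 11006 in PC-C-H and 11330, 10346 and 14472 in PR-C-H. Only PR-C-H 59 and PR-H 23 overlapped. The difference was -0.68 (SE 0.16, DESeq2 adjusted p = 0.0373), and it was -1.06 in the PC arm and -0.38 in the PR arm. On the control diet its range was 8149 to 16300, which holds all 5 F2 HFD animals. Without PC-H 11 and 34 none of the 3 genes passed with DESeq2 (adjusted p = 0.0875 for Frmd4a, 0.0854 for Ltbp1 and 0.0989 for Dynll1), with differences of 0.45, 0.41 and -0.53. In the microtubule and dynein list, which holds Dynll1, 7 of 7 named genes lay below 0 with a median of -0.286, or -0.132 without PC-H 11 and 34, and in the PR arm 5 of 7 did with a median of -0.0943.

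Other named genes with small limma p-values did not pass with DESeq2 across arms. Higher in F2 were Zc3hav1, the zinc finger antiviral protein (0.47), Srsf5, a splicing factor (0.42), Casp2, an initiator caspase (0.40), and Oplah, which returns 5-oxoproline to glutamate (0.46). Lower were Scx, a transcription factor of tendon and valve (-0.57), Dctpp1, which degrades excess dCTP (-0.49), Arpc5l, a subunit of the Arp2/3 complex (-0.35), Pla2g12a, a secreted phospholipase (-0.35), and Aimp2, a scaffold of the tRNA synthetase complex (-0.26). Of these, only Aimp2 did not overlap between generations, at 1309 to 1484 normalized counts in F1 and 1041 to 1206 in F2. Their DESeq2 adjusted p-values across arms ran from 0.104 for Aimp2 to 0.36 for Oplah. In the PC arm 5 of the 9 passed with DESeq2, where 2.75% of all genes did. Of the 141 named genes, 10 rose and 19 fell in that arm by DESeq2. The 9 were chosen by limma p across both arms, on the same animals, so this count is not independent of that choice. Zc3hav1 rose there by 0.82 (adjusted p = 5.47e-05, beside 0.19 in the PR arm), Srsf5 by 0.62 and Casp2 by 0.66, while Pla2g12a (-0.57) and Dctpp1 (-0.71) fell.

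Most of the 30 genes that fell by DESeq2 were abundant in a few F1 animals and nearly silent in F2. The median DESeq2 log2 fold change of the 30 was -3.27, and 24 of them lay below -2. In 16 of them the F2 mean was under 10 normalized counts. PC-H 11 or PC-H 34 was the highest F1 library in 29 of the 30. The direction was the same in both arms for 30 of 30, where 58.7% of all genes had the same sign. In 12 of 30 the generations did not overlap, while 0.311% of all genes were lower in F2 without overlap. The 30 were chosen by a test on these same animals of both arms, so neither count is independent of that choice. Dynll1 is the 1 among them with a name here. The lowest limma p belonged to ENSCPOG00000037062, which measured 445, 100.9 and 175 normalized counts in the PC-H animals and 118, 87.7 and 141 in the PR-H animals, against 13.0 and 18.7 in PC-C-H and 15.5, 34.1 and 6.66 in PR-C-H. Every F1 animal was above every F2 animal, and the lowest F1 value came from the PR arm. It fell by 3.15 on the log2 scale (SE 0.45, DESeq2 adjusted p = 1.06e-06, limma adjusted p = 0.171). The difference was -3.59 in the PC arm and -2.80 in the PR arm, both past the DESeq2 threshold, and -2.74 without PC-H 11 and 34 (DESeq2 adjusted p = 9.94e-07). On the control diet F1 animals ranged from 0 to 171 and F2 animals from 16.6 to 89.1.

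ENSCPOG00000032037 measured 1209, 847 and 196 normalized counts in PC-H and 102, 77.0 and 63.5 in PR-H, against 45.5 and 59.9 in PC-C-H and 11.7, 52.1 and 7.61 in PR-C-H. It fell by 2.74 (SE 0.55, DESeq2 adjusted p = 0.00282, and 0.0013 without PC-H 11 and 34), and PR-H 31 was close to PC-C-H 53. ENSCPOG00000001489 measured 298, 46.4 and 134 in PC-H and 5.16, 4.92 and 82.9 in PR-H, while PC-C-H 50 measured 1.63, PR-C-H 46 measured 0.898 and the remaining F2 animals 0. Its DESeq2 adjusted p was 1.21e-06, and with so few F2 reads no fold is given. Without PC-H 11 and 34 DESeq2 gave it no adjusted p. ENSCPOG00000038560 averaged 941 in F1 and 187 in F2 and fell by 2.01 (DESeq2 adjusted p = 0.00148), and the difference was -1.61 without PC-H 11 and 34 (adjusted p = 0.128).

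**Figure D3:**
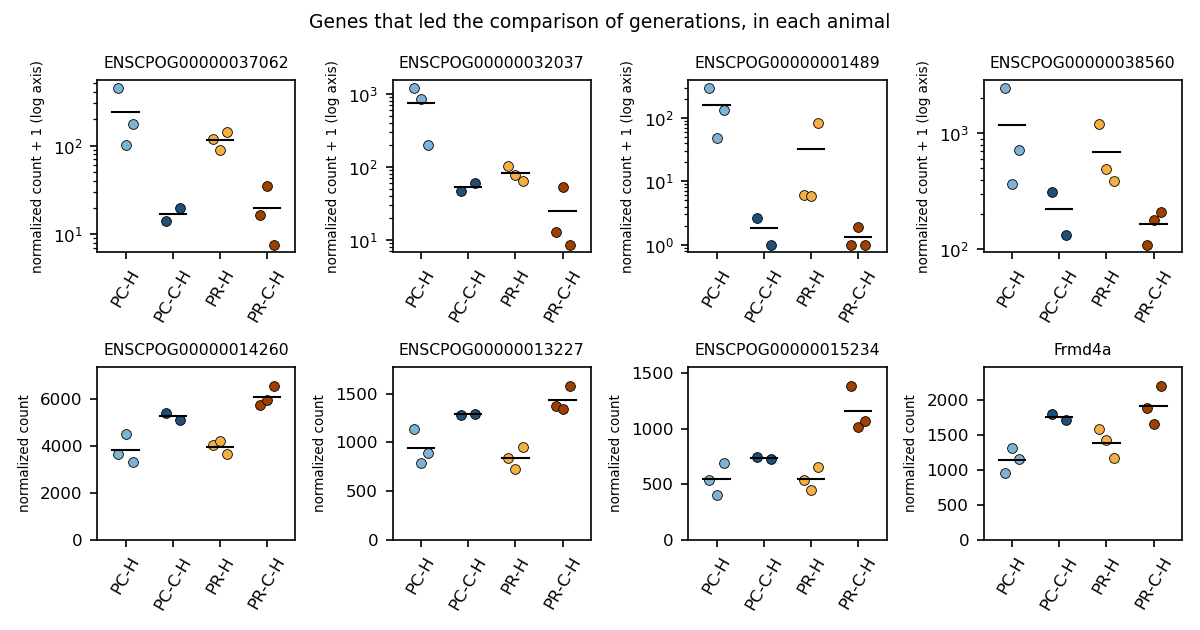
Normalized counts of 8 genes that led the comparison, in each animal by group, with lines at the group means. The upper row has log axes of the count plus 1 and shows genes with lower values in F2, and the lower row has linear axes from 0 and shows genes with higher values in F2, among which F1 and F2 animals do not overlap.

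Some falls were smaller. ENSCPOG00000015355 measured 802 to 1002 normalized counts in F1 and 591 to 732 in F2 and fell by 0.41 (DESeq2 adjusted p = 0.0251, and 0.00826 without PC-H 11 and 34). ENSCPOG00000001621 fell by 0.31 and ENSCPOG00000003149 by 1.06, both without overlap, and neither passed when PC-H 11 and 34 were left out (DESeq2 adjusted p = 0.142 and 0.09), with differences then of -0.25 and -1.04. ENSCPOG00000004457 did not overlap either, at 251 to 505 in F1 and 135 to 224 in F2. Its DESeq2 adjusted p was 0.112, or 0.0383 without PC-H 11 and 34. With 1 animal left out, ENSCPOG00000015355 passed with DESeq2 in 5 of 11 cases, ENSCPOG00000001621 in 3, ENSCPOG00000003149 in 6 and ENSCPOG00000004457 in 0.

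The 13 genes that rose had a median DESeq2 log2 fold change of 0.635, and 9 of them did not overlap between generations. Among all genes 0.471% were higher in F2 without overlap, and the 13 were likewise chosen on these animals. ENSCPOG00000014260 measured 3644, 4529 and 3337 normalized counts in PC-H and 4052, 4198 and 3651 in PR-H, against 5396 and 5127 in PC-C-H and 5768, 5983 and 6573 in PR-C-H. Each F2 animal exceeded each F1 animal. It rose by 0.55 (SE 0.10, DESeq2 adjusted p = 0.000262, and 0.00235 without PC-H 11 and 34), and it passed with DESeq2 with any 1 of the 11 animals left out. ENSCPOG00000013227 measured 727 to 1137 in F1 and 1284 to 1580 in F2, and rose by 0.64 (SE 0.13, DESeq2 adjusted p = 0.00351, and 1.87e-07 without PC-H 11 and 34), also past the threshold with any 1 animal left out. For this gene the F2 level was higher on the control diet as well, by 0.89, at 646 to 1006 in F1 and 890 to 2453 in F2. ENSCPOG00000015234 measured 406 to 694 in F1 and 728 to 1387 in F2, with the higher F2 values in the PR arm (1387, 1018 and 1070), and rose by 0.81 (DESeq2 adjusted p = 0.0256). Without PC-H 11 and 34 this last gene also passed (1.87e-07). ENSCPOG00000012041 rose by 0.66, ENSCPOG00000020183 by 0.52, ENSCPOG00000003296 by 0.81 and ENSCPOG00000006754 by 1.09, the last from 23.2 to 65.3 in F1 to 73.0 to 118 in F2.

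Of the 43 genes, 42 were also tested with limma, and for 28 of them (66.7%) the mean difference between generations had the same sign on the control diet, where 53.5% of all genes tested had the same sign on both diets. No animal is in both comparisons. Of the 6 F2 animals on the control diet, 5 belong to a division of the libraries that holds none of the 11 HFD animals, and its part in these values was not tested.

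Counts by DESeq2 and at an unadjusted p were higher in the PC arm than in the PR arm. In the PC arm (PC-H against PC-C-H), limma and edgeR passed 0 genes, with 2410 genes (18.3%) at an unadjusted p under 0.05 by limma and 2448 by edgeR, and DESeq2 passed 379 of 13779 (2.75%), 117 higher and 262 lower in F2. For the PR arm, limma and edgeR passed 0, with 302 (2.29%) and 315 at an unadjusted p under 0.05, and DESeq2 passed 26 of 15869 (0.164%), 10 higher (0.063%) and 16 lower (0.101%). The PC arm holds the libraries that stood apart and has 2 F2 animals, and without PC-H 21, the remaining animal of its group, its limma count went from 0 to 2060 and its DESeq2 count to 3119. Its DESeq2 count was 31 without PC-C-H 50, 77 without PC-H 34, 85 without PC-C-H 53 and 113 without PC-H 11. The DESeq2 count of the PR arm was 42 without PC-H 11 and 34, which enter it through the shared spread, and 5 without PR-C-H 43, 9 without PR-H 16, and 13 without PR-H 31 or PR-C-H 59.

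Signs were partly shared. Of 2409 genes with an unadjusted p under 0.05 in the PC arm, 1739 (72.2%) had the same sign in the PR arm, against 58.7% of all genes. Of 375 genes past the DESeq2 threshold in the PC arm and tested with limma, 290 (77.3%) had the same sign in the PR arm, and 6 passed there. Of the 26 genes past it in the PR arm, 13 had the same sign in the PC arm (50%). The arms share no animal, although the 4 groups share 1 estimate of spread. Among the 141 named genes in the PR arm, 62 lay above 0 and 79 below, with a median of -0.035, and 1 passed with DESeq2. This was Gprin3, a name chosen after its values were seen, listed at 0 in 8 of the 11 libraries, with 136 normalized counts in PC-H 34, 27.9 in PR-C-H 46 and 4.76 in PR-C-H 59, so that a single library in each arm carried most of its reads.

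**Figure D4:**
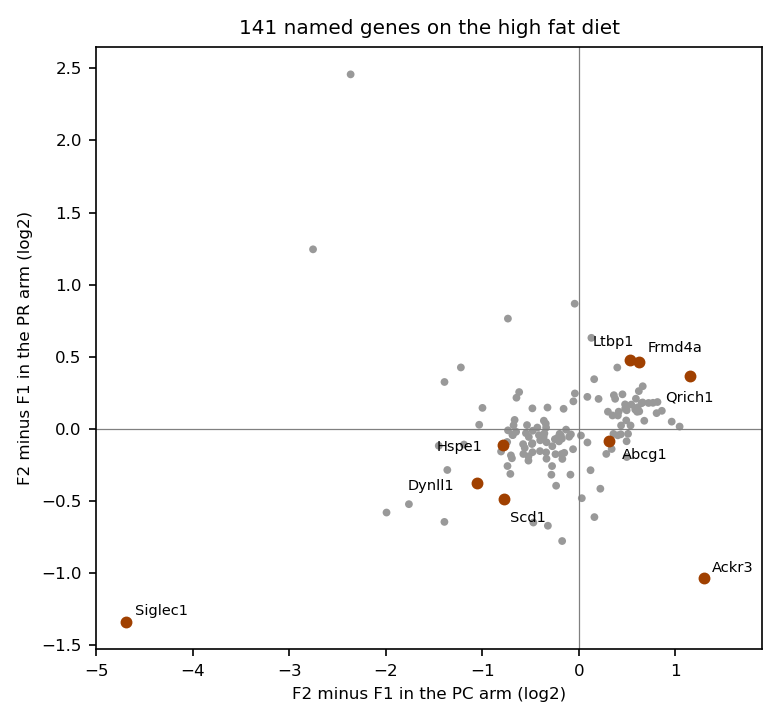
Log2 difference between generations (F2 minus F1) of 141 named genes in the PC arm (horizontal) and the PR arm (vertical), each point 1 gene. The points spread further along the PC axis, Frmd4a and Ltbp1 lie above 0 in both arms, Dynll1, Scd1 and Siglec1 below 0 in both, and Ackr3 on opposite sides.

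Within the PC arm, the genes named by size were ENSCPOG00000036289 (43.4 or less in PC-H, 146 and 154 normalized counts in PC-C-H), ENSCPOG00000012436 (252 to 344 against 1108 and 1196) and ENSCPOG00000011005 (133 to 274 against 905 and 448), which rose by DESeq2. ENSCPOG00000037925 (543, 25.2 and 925 against 15.5 and 1.87) and ENSCPOG00000012393 (531, 66.6 and 3618 against 35.0 and 7.48) fell, and both were highest in the libraries that stood apart. Within the PR arm, ENSCPOG00000035327 rose by 2.01, from 185, 256 and 514 in PR-H to 1177, 1056 and 1299 in PR-C-H (DESeq2 adjusted p = 0.000362). ENSCPOG00000011555 rose by 1.22, from 2392, 3820 and 3147 to 7905, 6101 and 7530 (DESeq2 adjusted p = 0.000474). ENSCPOG00000032833 fell by 4.16, from 59.3, 109 and 66.2 to 6.22, 9.88 and 0 (DESeq2 adjusted p = 0.0245). In each of these 3 the PR groups did not overlap, as was the case for 9.06% of genes in that arm.

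The difference between arms was tested directly. By limma and edgeR 0 genes passed, with 719 (5.46%) and 799 at an unadjusted p under 0.05, and by DESeq2 26 of 14468 passed (0.18%), 14 with the larger F2 minus F1 value in the PR arm (0.0968%) and 12 with the smaller (0.0829%). This count was 859 without PC-H 21 and 17 without PC-H 11. ENSCPOG00000011555 was among the former, with -0.78 in the PC arm against 1.22 in the PR arm (DESeq2 adjusted p = 2.24e-05), as was ENSCPOG00000035327, with -0.83 against 2.01. ENSCPOG00000038272 (-3.68 against 1.37) and ENSCPOG00000010496 (-2.49 against 0.67) followed, with PC-H 34 and PC-H 11 as their highest libraries. Smaller in the PR arm were ENSCPOG00000011005 (1.72 against -1.24), ENSCPOG00000039814 (1.98 against -1.96) and ENSCPOG00000036998, which measured 18286, 13599 and 14380 normalized counts in the PR-H animals, 2562, 3398 and 3923 in the PR-C-H animals, and 27618 and 6966 in the PC-C-H animals 50 and 53.

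Several named markers of other cells were highest in PC-H 11 or 34. In bulk RNA, fewer cells of a type and less RNA per cell cannot be told apart. Siglec1, a macrophage lectin, measured 28.5, 8.07 and 156 normalized counts in PC-H, 4.30, 2.46 and 5.29 in PR-H and at most 1.80 in any F2 animal, without overlap. All 3 named genes of the macrophage list lay below 0, with 0 past a test across arms. In the PC arm Siglec1 and Samsn1 fell by DESeq2 (adjusted p = 0.015 and 0.00721), and for Samsn1 the contrast between arms passed as well (0.00625). With PC-H 11 and 34 left out, 1 of the 2 genes then tested lay below 0. Samsn1, an adaptor of blood cells, measured 62.3, 56.5 and 87.7 in PC-H against 14.6 and 5.61 in PC-C-H, but 7.73, 26.2 and 19.4 in PR-H against 43.5, 31.4 and 43.8 in PR-C-H. The scavenger receptor Colec12 was highest in PC-H 11 and 34 (978 and 887) and overlapped, and which cells it came from was not tested. Of 3 named B cell genes 0 passed, and Pou2af1 and Fcmr were highest in PC-H 34 (247 and 288). The summed level of the macrophage list was 287 to 1131 in F1 and 172 to 544 in F2. Most of it was Colec12 (275 to 978 in F1 and 128 to 539 in F2), so the sum does not measure macrophages. The B cell list summed to 18.5 to 574 in F1 and 19.4 to 97.6 in F2. Defining markers such as Cd68, Csf1r and Cd79a are not among the names, and the part of these cells in the results was not tested.

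The 5 named interferon genes included Ifi27 and Ifi27l2, which were highest in PC-H 34 (12774 and 20639 normalized counts) and PC-H 11 (9368 and 16542), with 1433 to 4485 and 2844 to 7402 in F2. None of the 5 passed across arms, and the median was -0.261, or -0.126 without PC-H 11 and 34. In the mesenchymal and smooth muscle list of 8, Ltbp1 rose and the others did not pass, and Snai2, a repressor of epithelial adhesion genes, reached 1023 in PC-H 34 and 239 in PC-H 11 against 20.7 to 107 elsewhere on the HFD. Lists for actin (median -0.0615, 8 genes), ubiquitin and proteasome (-0.189, 5 genes) and mitochondrial genome upkeep (0.191, or 0.0559 without PC-H 11 and 34, 6 genes) had 0 members past a test across arms. The last of these lists also holds the carrier Slc25a40, which is not a gene of genome upkeep. Red cell genes are not among the names.

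The difference between generations on the HFD was also compared with that on the control diet, over 23 libraries. With limma 135 of 13224 genes passed (1.02%), 68 with the higher F2 minus F1 value on the HFD (0.514%) and 67 with the lower (0.507%). With edgeR 92 passed (0.693%), 34 higher (0.256%) and 58 lower (0.437%), and with DESeq2 426 (2.99%), 197 higher (1.38%) and 229 lower (1.61%). Of the 6 control diet F2 animals, 5 (PR-C-C 41, 47 and 58 and PC-C-C 54 and 55) fall with PC-C-H 51 in a division of the libraries marked by ENSCPOG00000036145, at 390 to 842 normalized counts in those 6 and 0 in the other 18. With a term for this division, 0 genes passed with limma and 885 had an unadjusted p under 0.05. With 1 control diet F2 animal outside the division, its part was not tested beyond this term. The highest differences belonged to ENSCPOG00000003379, which marks the division from the other side, ENSCPOG00000009301 and ENSCPOG00000019924, whose HFD values overlapped between generations. The count was 1 without PC-C-H 53 and 454 without PC-C-C 52, and it stayed within 1.5 times of 135 only without PC-H 11 (116), PR-H 23 (103), PR-C 25 (166) or PR-C-C 58 (132). Frmd4a was among the 135, at 0.54 across the HFD animals and -0.31 on the control diet.

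DESeq2 calls across arms depended on single animals. The count was 43 with all 11 and ran from 17 without PR-C-H 43 to 181 without PR-H 23. It was 154 without PC-H 21, 86 without PR-C-H 59, 74 without PR-C-H 46, 28 without PC-H 11 and 24 without PR-H 31. Without both PC-H 11 and 34 it was 57, with 29 higher and 28 lower in F2, and 13 of the 43 genes were among those 57. It was 45 without PR-H 16 or PC-H 34, 29 without PC-C-H 50 and 35 without PC-C-H 53. With limma the count was 1 without PR-C-H 46 or PR-C-H 59 and 0 otherwise.

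**Figure D5:**
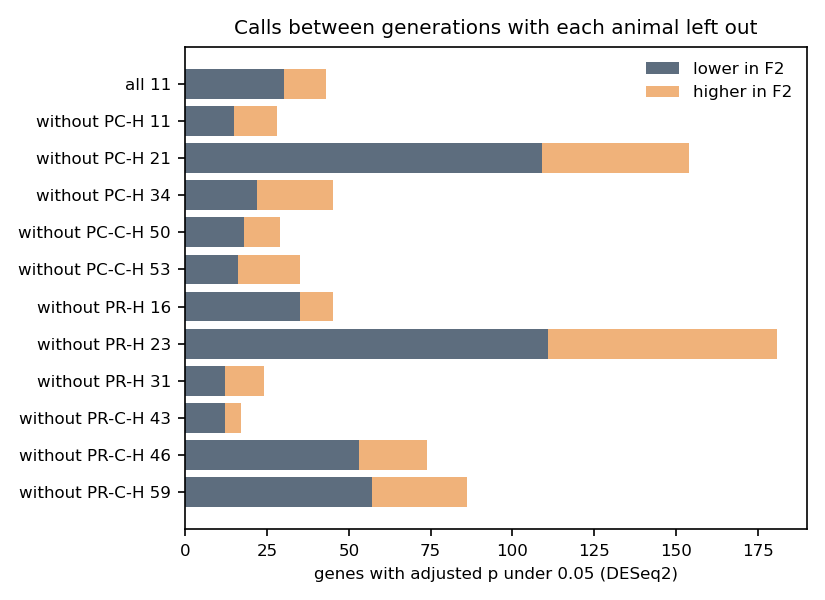
Number of genes past an adjusted p of 0.05 with DESeq2 between the generations on the high fat diet, with all 11 animals and with each animal left out in turn, split by direction. The count is 43 with all animals and between 17 and 181 with 1 left out.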

How the data were processed

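Flushed carotid endothelial RNA of 24 guinea pigs was sequenced by the authors, who per the paper used FastQC, Trimmomatic, STAR and DESeq2. Versions, genome build, annotation and counting program are not given in the sources used here. The authors deposited a table of signal values, in which the reads of a gene were scaled by a single DESeq2 size factor for each library (normalized counts). Of the values, 100% came out as whole reads within 0.01, and these reads entered DESeq2 and edgeR. The table holds 18149 genes. The reference table matched 0 identifiers, and 144 were paired with names through the readable part of a list in the study's supplement, whose fold changes and p-values were not used. Sequences and positions were not analysed here.

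Members, lists and genes were chosen with earlier results of these data known. limma 3.58.1 with an intensity trend was fitted to log2 of the normalized count plus 1 for genes averaging 10 or more, with generation and F0 ration as terms, with 4 group means for the arms, or with 8 groups and 23 libraries for the diets. p-values were adjusted by the Benjamini-Hochberg method over all genes tested (threshold 0.05). Alternatives were DESeq2 1.42.0, edgeR 4.0.16, TMM, pseudocounts of 0.1 and 10, no filter, 8 groups, animal 51 included, sex, no ration term, the mean of the differences within rations, array weights and each animal left out. Chosen after seeing the data were DESeq2 with each animal left out, PC-H 11 and 34 left out, and a term for the library division. The limma, edgeR and DESeq2 fits were first tested on simulated counts, which had the same dispersion for all genes and no library that stood apart.

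Named genes are 17 fixed genes (Abcg1, Mylip, Srebf1, Scd1, Ackr3, Ppp1r2, 9 chaperones and stress factors, Dynll1 and Tshz1), up to 8 in each direction without overlap, averaging 50 or more, by test result and then limma p, up to 8 paired names in each direction by limma p, and up to 3 in each direction from the other comparisons. Others (list members and cell markers, for example) were chosen after their values were seen. Groups came from the labels, and sex from the study's animal list. HFD libraries held a median of 27512249 reads. The most alike animals of a group, PR-C-H 43 and 46, still gave a chi-square of 32.9 for each degree of freedom (1 under counting error alone), so precision is set by animals more than by depth. R 4.3.3, Python 3.11.15, NumPy 2.4.6, SciPy 1.17.1 and matplotlib 3.10.9 were used.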

Additional observations from a re-analysis of the deposited data

Results flagged for a closer look

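Among 100 gene and library values examined within a generation (6 F1 or 5 F2 libraries), 4 had 1 library far from the others by Dixon's ratio of gap to range, where chance gives about 1 in 20. Manf was low in PR-H 23 (ratio 0.767), Abcg1 was low in PC-H 34 (0.634), Aimp2 was low in PC-C-H 53 (0.736), and PC-H animal 21 had the fewest reads of the F1 side (0.681).

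The difference between generations itself differed between diets for 135 genes by limma. Of the genes listed here, it was larger on the HFD for Frmd4a (0.85 on the log2 scale), Qrich1 (1.21), ENSCPOG00000006754 (1.46), ENSCPOG00000003379 (6.90), ENSCPOG00000009301 (5.41) and ENSCPOG00000019924 (5.25). It was smaller for Samsn1 (-2.82), Hspa14 (-0.65), Fntb (-0.66), ENSCPOG00000036998 (-2.60), ENSCPOG00000021338 (-2.83), ENSCPOG00000033937 (-2.69) and ENSCPOG00000008856 (-2.63). With a term for the division of the libraries none of the 13 passed, since 0 genes did.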

How the results depend on the processing

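No paired analysis was possible because each animal has a number of its own and the groups share none. Across arms, the limma count of 0 was also 0 with TMM, both pseudocounts, no filter, 8 groups, animal 51, sex, array weights, no ration term, the mean of the within-ration differences, and PC-H 11 and 34 left out, and with edgeR. It was 43 with DESeq2 and 57 with DESeq2 without PC-H 11 and 34. With 1 animal left out it ranged from 0 to 1 with limma and from 17 to 181 with DESeq2. In the PC arm 0 became 379 with DESeq2 and 1 with a pseudocount of 0.1, 0 to 2060 with 1 animal left out by limma (2060 without PC-H 21) and 31 to 3119 by DESeq2 (31 without PC-C-H 50, 3119 without PC-H 21). In the PR arm it became 26 with DESeq2 and 42 with DESeq2 without PC-H 11 and 34, 0 to 2 with 1 animal left out by limma and 5 to 38 by DESeq2. Between arms it became 26 with DESeq2, 0 to 3 and 17 to 859 with 1 left out (859 without PC-H 21). The 135 genes of the diet interaction became 426 with DESeq2, 0 with animal 51, 704 with array weights, 0 with the term for the division, and 1 to 454 with 1 animal left out (1 without PC-C-H 53, 454 without PC-C-C 52). The cause was not tested. Where a group is left with 1 animal, that animal is assumed to vary like the others.

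For 46 genes followed through up to 36 alternatives, 20 values changed sign, all for genes past no threshold with all 11 animals (Abcg1, Ackr3 and Aimp2), and 166 passed a threshold that the limma value had not. ENSCPOG00000037062, ENSCPOG00000013227, ENSCPOG00000014260, ENSCPOG00000038560 and ENSCPOG00000001489 passed with DESeq2 in 11 of 11 cases with 1 animal left out, Frmd4a in 6, Ltbp1 in 5, Dynll1 in 4 and Scd1 in 1.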
